A study of Mus musculus with 12 samples.

Results

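The Schlafen genes of mouse form one family in a single cluster on chromosome 11, and 6 of them are described here: Slfn1, Slfn2, Slfn4, Slfn5, Slfn8 and Slfn9. Members were taken as probe sets whose only gene symbol was one of these names. Each of the 6 had 1 such probe set, out of 35557 on the array and 19938 genes with a probe set of a single symbol. Of these, 5 members passed the filter on dim signals that left 15273 genes for testing; Slfn4, with a mean of 5.33, lay just below the limit of 5.36 log2, and Slfn1, with 5.43, lay just above it.

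RNA came from cultured primary microglia, the resident macrophages of the brain, and each of 12 Affymetrix Mouse Gene 1.0 ST arrays held 1 sample. There were 4 groups of 3 arrays. Wild-type control cells stayed in normal oxygen and glucose for 24 h, and wild-type ischemia cells spent the same 24 h under hypoxic or hypoglycemic conditions. The knockout-labelled control and knockout-labelled ischemia groups are the same exposures in cells labelled as a knockout of TLR4, the receptor for bacterial lipopolysaccharide. Every group, controls included, then went through a reperfusion of 24 h with oxygen and glucose restored, so no array shows the exposure itself. The labels do not describe the altered Tlr4 allele, the strain, the age, or whether replicates are separate cultures. The spread behind each p-value is therefore the spread among these arrays and may be technical. The source name of the wild-type ischemia arrays reads as control, against their titles and the series key, which were followed.

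The Tlr4 probe set did not separate the genotype labels, at 8.71 ± 0.22 (SD, n = 6) in knockout-labelled and 8.74 ± 0.18 (SD, n = 6) in wild-type arrays (difference -0.02, two-sided exact permutation test, p = 0.851). Whether this probe set lies in the altered part of the gene is not known, so every genotype direction rests on the labels. Of 13 microglia markers, 12 had a probe set and 11 lay above the dim limit, with Csf1r at 12.3 and Gpr34 below the limit at 4.84. The extraction protocol names myocytes; the mean of 8 myocyte markers was 6.06 to 6.33 per array, against array medians of 6.3 to 6.4 over the whole array. Correlations between arrays of one group were 0.976 to 0.992, and with 3 arrays per group precision is limited by their number.

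Schlafen proteins, named after the German verb for sleeping, were first described as brakes on the growth of T cells, and many family members are induced by type I interferon in myeloid cells. The short mouse forms Slfn1 and Slfn2 hold only the conserved amino-terminal Schlafen core. Slfn4 is of intermediate length, and the long forms Slfn5, Slfn8 and Slfn9 add a carboxy-terminal region related to helicases. Cores of several family members bind or cut transfer RNA, and some human members restrict viruses. In the gene table (GRCm38.p6) the 6 members lie in the order Slfn5, Slfn9, Slfn8, Slfn2, Slfn1, Slfn4, with Slfn9 and Slfn8 on the minus strand and the others on the plus strand.

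The 3 long members share a feature of their promoters that the choice of members did not use. Their RefSeq promoter windows (GRCm38.p6, 250 bases before to 50 bases after the annotated start) each held the core letters of the interferon-stimulated response element, GAAA followed by any 2 bases and GAAA, searched on both strands. The windows of Slfn1, Slfn2 and Slfn4 held no match, nor did those of Slfn3 and Slfn14, genes of the cluster outside the member list. This says only that these letters are not in those windows. The shared match is stated for the 3 long members only, and not for long Schlafen forms in general. Of 27025 genes with a window in the table, 3.99% held the motif. The 250 bases before the start are shown for the 3 genes with a match, 5′ to 3′ along each gene's own strand, with the matched letters in capitals. For Slfn8, which has 2 overlapping windows, the one farther upstream is shown.
Slfn5, chr11:82951852-82952101, plus strand: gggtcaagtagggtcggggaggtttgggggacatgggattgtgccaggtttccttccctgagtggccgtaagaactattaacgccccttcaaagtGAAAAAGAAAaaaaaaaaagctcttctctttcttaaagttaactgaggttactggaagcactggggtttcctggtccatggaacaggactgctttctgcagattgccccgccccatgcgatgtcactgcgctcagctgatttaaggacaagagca
Slfn8, chr11:83020811-83021060, minus strand: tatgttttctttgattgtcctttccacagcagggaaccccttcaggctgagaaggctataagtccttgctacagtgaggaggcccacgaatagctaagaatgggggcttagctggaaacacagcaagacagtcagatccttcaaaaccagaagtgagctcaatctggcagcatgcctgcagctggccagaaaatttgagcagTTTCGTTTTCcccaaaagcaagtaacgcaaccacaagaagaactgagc
Slfn9, chr11:82991831-82992080, minus strand: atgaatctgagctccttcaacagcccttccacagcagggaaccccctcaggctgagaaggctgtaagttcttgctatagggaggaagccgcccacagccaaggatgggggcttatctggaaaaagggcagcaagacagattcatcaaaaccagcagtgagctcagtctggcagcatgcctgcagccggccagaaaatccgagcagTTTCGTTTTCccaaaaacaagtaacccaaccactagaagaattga
In Slfn5 the match lay 155 to 146 bases before the start, which here falls inside the span of the gene record, downstream of its first base. The Slfn5 match runs directly into a stretch of A bases, and its letters differ from the match in Slfn8 and Slfn9. In Slfn8 and Slfn9 it lay 48 to 39 and 45 to 36 bases before the start, with the same 10 letters, which read as the reverse complement of the motif. The windows of Slfn8 and Slfn9 were 80.8% identical over their alignment, while the other pairs of members ranged from 46.5% to 53%, so those 2 matches are not independent observations. A match is a description of letters and not a measured binding site.

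In wild-type microglia, ischemia and reperfusion went with higher signals of the long Schlafen genes and of Slfn2. Values are log2 RMA signals, and changes are differences of them. Slfn8 was 2.12-fold and Slfn5 1.99-fold higher after ischemia, Slfn9 1.53-fold and Slfn2 1.38-fold, while Slfn4 differed by 0.13 on the log2 scale and the 1.97-fold mean of Slfn1 came largely from 1 array. These values shifted when only 1 of the wild-type arrays numbered 2 was left out. Without wild-type ischemia array 2 the log2 changes were 0.60 for Slfn8, 0.59 for Slfn5 and 0.24 for Slfn2. Without wild-type control array 2 they were 1.61, 1.47 and 0.67, and in neither fit did any pass without a block. Without both arrays they were 1.12, 1.07 and 0.45. Limma without a block called 0 of the 5 tested members at an adjusted p under 0.05, where it called 2 of all 15273 genes, or 0.0131%. Same-numbered arrays of a genotype deviated together over all genes, and with that number as a block inside each genotype limma called 4 of the 5 members, all of them higher. That fit called 3.73% of all genes, 2.99% higher. At an unadjusted p under 0.05 there were 3 members without the block, against 14.7% of all genes. The number of a replicate is not explained in the labels, and its use as a block rests on the data. Deviations of unlike-numbered wild-type arrays correlated at up to 0.399, and those of same-numbered ones at 0.478 or more.

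Slfn8 belongs to the long forms and has been linked in mice to T cell development. Its signal was 7.25, 8.99 and 7.56 in wild-type control arrays 1, 2 and 3, and 8.73, 9.997 and 8.32 in wild-type ischemia arrays 1, 2 and 3. Control array 2 lay above ischemia arrays 1 and 3, so the groups overlapped, yet each ischemia array lay above the control array of its own number, by 1.48, 1.01 and 0.76. The change was 1.09 (SE 0.45, 95% interval 0.12 to 2.05, limma adjusted p = 0.307). With the block it was 1.09 (SE 0.12, limma adjusted p = 0.000375).

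Slfn5 encodes a nuclear long form whose human counterpart restricts herpes simplex virus and acts on interferon-driven transcription. It read 8.75, 10.39 and 9.18 in wild-type control arrays 1, 2 and 3, and 10.22, 11.24 and 9.85 in the ischemia arrays of the same numbers. The pattern was that of Slfn8: control array 2 was above 2 of the 3 ischemia arrays, and all 3 pairs rose, by 1.47, 0.85 and 0.67. The change was 1.00 (SE 0.41, limma adjusted p = 0.307; with the block SE 0.15, limma adjusted p = 0.00215). The 6 wild-type arrays stood in the same order for Slfn5 and Slfn8: control 1, control 3, ischemia 3, ischemia 1, control 2, ischemia 2.

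Slfn9 is the neighbour of Slfn8 in the cluster and on the same strand. Control arrays 1, 2 and 3 gave 7.08, 8.56 and 7.06, and ischemia arrays 1, 2 and 3 gave 7.61, 9.43 and 7.50. Both arrays numbered 2 stood above the other 4, and the pairs differed by 0.53, 0.86 and 0.44. The change of 0.61 (SE 0.49) had a limma adjusted p = 0.555, and with the block (SE 0.14) a limma adjusted p = 0.0338. Left without wild-type ischemia array 2, the fit with no block put it at -0.01.

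Slfn2 keeps resting T cells quiescent in mice, where its loss leaves them unable to survive activation, and its protein binds transfer RNA. It read 10.17, 10.94 and 10.47 in wild-type control arrays 1, 2 and 3, and 10.74, 11.43 and 10.79 in the ischemia arrays. The groups overlapped through control array 2 alone, and the 3 pairs rose by 0.58, 0.49 and 0.32. The change was 0.46 (SE 0.20, limma adjusted p = 0.330; with the block SE 0.095, limma adjusted p = 0.0193).

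Slfn1, the founding short form, slows the growth of thymocytes and fibroblasts when overexpressed. Its signal was 5.36, 5.52 and 5.10 in wild-type control arrays 1, 2 and 3, and 5.67, 7.84 and 5.40 in ischemia arrays 1, 2 and 3. One array, ischemia 2, carried most of the difference: the pairs differed by 0.31, 2.33 and 0.30, and the other 11 arrays read 5.67 or less. The change was 0.98 (SE 0.47, limma adjusted p = 0.353; with the block limma adjusted p = 0.0645), and it was 0.21 without wild-type ischemia array 2. Slfn1 passed the dim filter through that array.

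Slfn4, of the intermediate forms, is induced in mouse macrophages by lipopolysaccharide and interferon and marks some myeloid suppressor cells. It read 5.50, 5.65 and 4.88 in control arrays 1, 2 and 3, and 5.64, 5.62 and 5.16 in ischemia arrays 1, 2 and 3 of the wild type. The groups overlapped throughout, with pair differences of 0.14, -0.03 and 0.28. In the fit without the dim filter the change was 0.13 (SE 0.20, 95% interval -0.31 to 0.56, limma adjusted p = 0.808).

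None of the 6 members separated the 2 wild-type groups without overlap, against 21.7% of all genes. In contrast, 5 of the 6, all but Slfn4, were higher in each of the 3 same-numbered pairs, as were 25.8% of all genes tested. Leaving out each same-numbered pair in turn, the blocked calls of Slfn5 and Slfn8 held in all 6 such fits (limma adjusted p up to 0.0212 and 0.00412). Only the 3 fits without a wild-type pair can move the wild-type change itself. The fits without a knockout-labelled pair keep that change and alter only its estimated spread. Slfn2 lost its call without wild-type pair 1 or 2 (limma adjusted p = 0.193 and 0.0660). Slfn9 lost it without wild-type pair 1, 2 or 3 (limma adjusted p = 0.139, 0.150 and 0.0772). With a block over the 6 wild-type arrays alone, the count was also 4, in a fit that called 468 of 15273 genes.

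**Figure D1:**
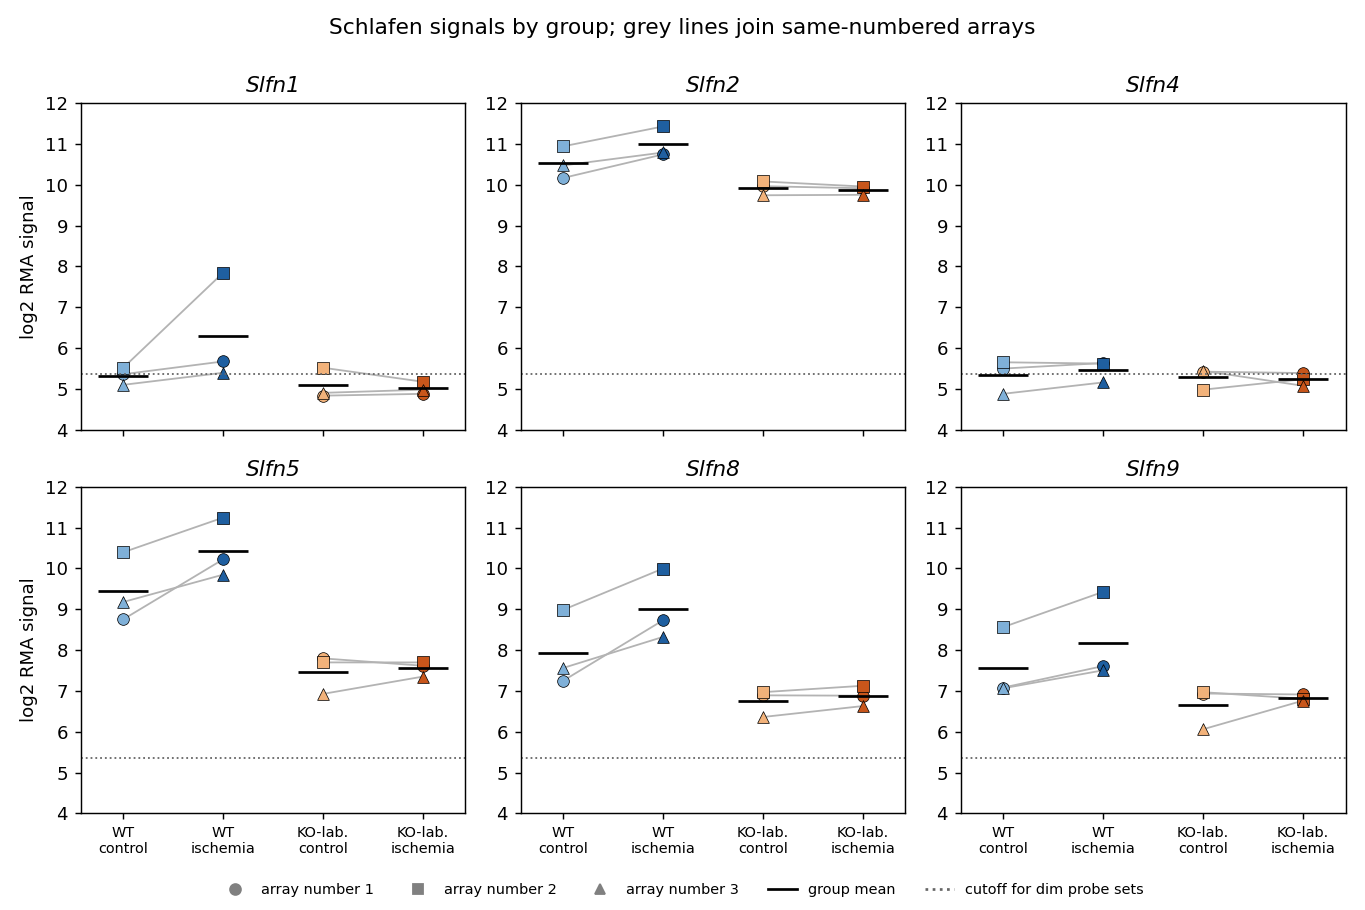
Log2 RMA signal (vertical axis) of each member on all 12 arrays by group (horizontal axis); marker shape gives the array number, grey lines join arrays of the same number, bars are group means, and the dotted line is the dim limit of 5.36. Slfn5, Slfn8, Slfn9 and Slfn2 rise along every wild-type line and lie lower in the knockout-labelled arrays, Slfn1 is high on 1 array, and Slfn4 stays near the limit.

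The wild-type arrays numbered 2 had the highest signal of Slfn1, Slfn2, Slfn5, Slfn8 and Slfn9 within their own condition. Mean signals of the microglia markers were 9.98 to 10.01 on these 2 arrays, against 9.29 to 9.64 on the other 4 wild-type arrays. The widest gaps were in Fcrls (10.89 and 10.28 against 8.60 to 9.09) and Cx3cr1 (10.32 and 10.16 against 8.535 to 9.04). Aif1 followed, at 9.30 and 9.75 against 7.23 to 8.46. Smaller gaps stood in P2ry12, Trem2 and Gpr34, while Csf1r, Itgam, Cd68, Ptprc, Spi1 and Tmem119 overlapped. Border-associated macrophage markers (6 listed, 5 above the dim limit, with Cd163 below it at 5.01) read 7.75 to 7.78 against 7.15 to 7.45. Their widest gap was in Pf4 (7.98 and 8.77 against 5.98 to 7.39). Smaller ones stood in Ms4a7, Mrc1 and F13a1, while Lyve1 and Cd163 overlapped. Monocyte markers (7 listed, 4 with a probe set, Ccr2 and Plac8 below the limit) read 4.91 to 4.93 against 5.01 to 6.03, a gap carried by Chil3 (4.76 and 5.48 against 6.38 to 8.82), while Ccr2 and Plac8 overlapped. Astrocyte markers (6 listed, 4 above the limit) read 5.80 to 6.05 against 6.19 to 6.38. That gap was carried largely by Aldoc (7.74 and 7.71 against 8.82 to 10.02), while Gfap, Slc1a3 and S100b overlapped. Lymphocyte markers (8 with a probe set, 4 above the limit) read 5.80 to 5.91 against 5.98 to 6.12. The widest gap there was in Il7r (10.62 and 10.53 against 11.30 to 11.74), Cd8a and Cd2 lay slightly lower, and Cd3e overlapped. The part of these marker lists in the Schlafen values was not tested. Fewer cells of a type and less RNA per cell cannot be told apart in such samples. Without both arrays numbered 2, the wild-type changes were 1.12 for Slfn8, 1.07 for Slfn5, 0.48 for Slfn9 and 0.45 for Slfn2, and Slfn1 was at 0.30. Leaving out only one of the pair moved these changes down or up by more, as given above for Slfn8, Slfn5 and Slfn2.

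In the knockout-labelled microglia, the same exposure left the Schlafen signals close to their control values. Limma called 0 of the 5, with and without the block, and 0 had an unadjusted p under 0.05; it called 0% of all genes without the block and 0.648% with it, and 8.73% had an unadjusted p under 0.05. All 6 members overlapped between these groups, where 14.3% of all genes did not. Slfn5 read 7.80, 7.70 and 6.93 in knockout-labelled control arrays 1, 2 and 3, and 7.62, 7.70 and 7.35 in the ischemia arrays. These groups overlapped, and only pair 3 was higher after ischemia. The change was 0.08, with a 95% interval of -0.81 to 0.97, or -0.23 to 0.39 with the block.

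Slfn8 read 6.89, 6.97 and 6.36 in knockout-labelled control arrays 1, 2 and 3 and 6.88, 7.13 and 6.63 after ischemia, a change of 0.14 (95% interval with the block -0.13 to 0.41). Slfn9 read 6.94, 6.97 and 6.06, then 6.91, 6.81 and 6.76, with 1 low control array. Its change was 0.17 (95% interval with the block -0.14 to 0.48). The signals of Slfn2 were the most even of the tested members, at 9.97, 10.08 and 9.74 in control and 9.92, 9.96 and 9.76 after ischemia, a change of -0.05 (95% interval with the block -0.26 to 0.15).

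Slfn1 read 4.84, 5.52 and 4.90 in knockout-labelled control and 4.88, 5.18 and 4.98 after ischemia, and Slfn4 read 5.42, 4.98 and 5.44, then 5.39, 5.24 and 5.08. Both genes scattered around or below the dim limit with no common direction over the pairs. The signs of these small changes were not stable: those of Slfn5, Slfn8 and Slfn9 turned negative without knockout-labelled control array 3 (-0.19, -0.05 and -0.13).

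The difference between the ischemia changes of the 2 genotypes was tested directly. It was negative for all 6 members: -0.95 for Slfn8, -0.92 for Slfn5, -0.51 for Slfn2, -0.44 for Slfn9, -1.05 for Slfn1 and -0.18 for Slfn4. Among all genes 48.4% had a negative difference. Without wild-type ischemia array 2 the values were -0.46 for Slfn8, -0.51 for Slfn5, -0.29 for Slfn2 and -0.28 for Slfn1, and Slfn9 turned to 0.19, so the value of Slfn1 rests on that array. Without wild-type control array 2 they were -1.47 for Slfn8, -1.39 for Slfn5 and -0.93 for Slfn9. Limma called 0 of the 5 tested members without the block, where it also called 0% of all genes, and 0 members against 2.9% of all genes had an unadjusted p under 0.05. With the block it called 1 member, Slfn8 (SE 0.18, limma adjusted p = 0.0372), and 0.308% of all genes. Slfn5 did not pass (SE 0.21, limma adjusted p = 0.118), nor did Slfn2 (limma adjusted p = 0.236). The Slfn8 call was lost when any same-numbered pair except wild-type pair 3 was left out (limma adjusted p from 0.0735 to 0.174).

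Already in control cells, most members read lower in the knockout-labelled arrays. Slfn5 was 3.91-fold lower, Slfn8 2.28-fold, Slfn9 1.89-fold and Slfn2 1.51-fold, and for these 4 of the 6 members the 3 knockout-labelled control arrays all lay below the 3 wild-type control arrays. Such separation with lower knockout-labelled values was found in 4.52% of all genes. Limma called 0 of the 5 tested members, with or without same-numbered arrays as a random block, where it called 0.0589% and 0.0917% of all genes; 3 members and 7.14% of all genes had an unadjusted p under 0.05. The difference for Slfn5 was -1.97 (SE 0.41, limma adjusted p = 0.201), with a limma adjusted p = 0.0886 in the fit with the random block. Without both wild-type arrays numbered 2, left out after seeing the data, it was -1.49 (SE 0.24, limma adjusted p = 0.0133). That fit called 100 of all 15273 genes. For Slfn8 the difference was -1.19 (SE 0.45), for Slfn9 -0.91 (SE 0.49) and for Slfn2 -0.60 (SE 0.20). Without wild-type control array 2 these were -0.66, -0.42 and -0.39, and Slfn5 was at -1.49 with a limma adjusted p = 0.204. Slfn1 at -0.24 (SE 0.47) and Slfn4 at -0.06 (SE 0.20) overlapped between the genotypes. Over the 6 knockout-labelled arrays the microglia markers read 9.32 to 9.46, the border-associated macrophage markers 7.26 to 7.42 and the monocyte markers 4.93 to 5.19, and their part in the genotype differences was not tested.

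After ischemia and reperfusion the genotype differences of the members were larger in size, and the test of that change is the difference of ischemia changes above. Slfn5 was 7.37-fold lower in the knockout-labelled arrays, Slfn8 4.40-fold, Slfn9 2.55-fold, Slfn1 2.45-fold and Slfn2 2.16-fold, and for these 5 of the 6 members the groups did not overlap, against 8.07% of all genes that were lower without overlap. Slfn4 overlapped, at -0.24 (SE 0.20). Limma called 2 of the 5 tested members, Slfn5 and Slfn2, both lower, and 0.714% of all genes (0.648% lower). At an unadjusted p under 0.05 there were Slfn2, Slfn5, Slfn8 and Slfn9, and also Slfn1, which passed the dim filter through 1 array, beside 8.35% of all genes. With the random block it called 3, adding Slfn8, and 0.989% of all genes (0.884% lower).

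For Slfn5 the lowest wild-type ischemia array, at 9.85, stood above the highest knockout-labelled ischemia array, at 7.70. The difference was -2.88 (SE 0.41, 95% interval -3.77 to -1.99, limma adjusted p = 0.00693). Without knockout-labelled ischemia array 3 it was -2.78 and just missed the threshold (limma adjusted p = 0.0505).

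The narrower gap of Slfn2, -1.11 (SE 0.20, limma adjusted p = 0.0271), stood beside small spreads, with 10.74 as the lowest wild-type and 9.96 as the highest knockout-labelled array. Its call was lost without wild-type ischemia array 2 (-0.89, limma adjusted p = 0.0624) and without knockout-labelled ischemia array 1, 2 or 3 (limma adjusted p = 0.133, 0.0880 and 0.127). The difference for Slfn8 was -2.14 (SE 0.45, limma adjusted p = 0.0532; with the random block limma adjusted p = 0.0161). Slfn8 passed when the first or the second wild-type control array was left out, or ischemia array 3 of the wild type (limma adjusted p = 0.0408, 0.00893 and 0.0386), and after a stricter dim filter (limma adjusted p = 0.0469). In the other 9 fits with 1 array left out it did not pass, with a limma adjusted p up to 0.227, and it was -1.65 (limma adjusted p = 0.108) without wild-type ischemia array 2. Slfn9 differed by -1.35 (SE 0.49, limma adjusted p = 0.413) and Slfn1 by -1.29 (SE 0.47, limma adjusted p = 0.418). Without wild-type ischemia array 2 they were at -0.73 and -0.52.

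**Figure D2:**
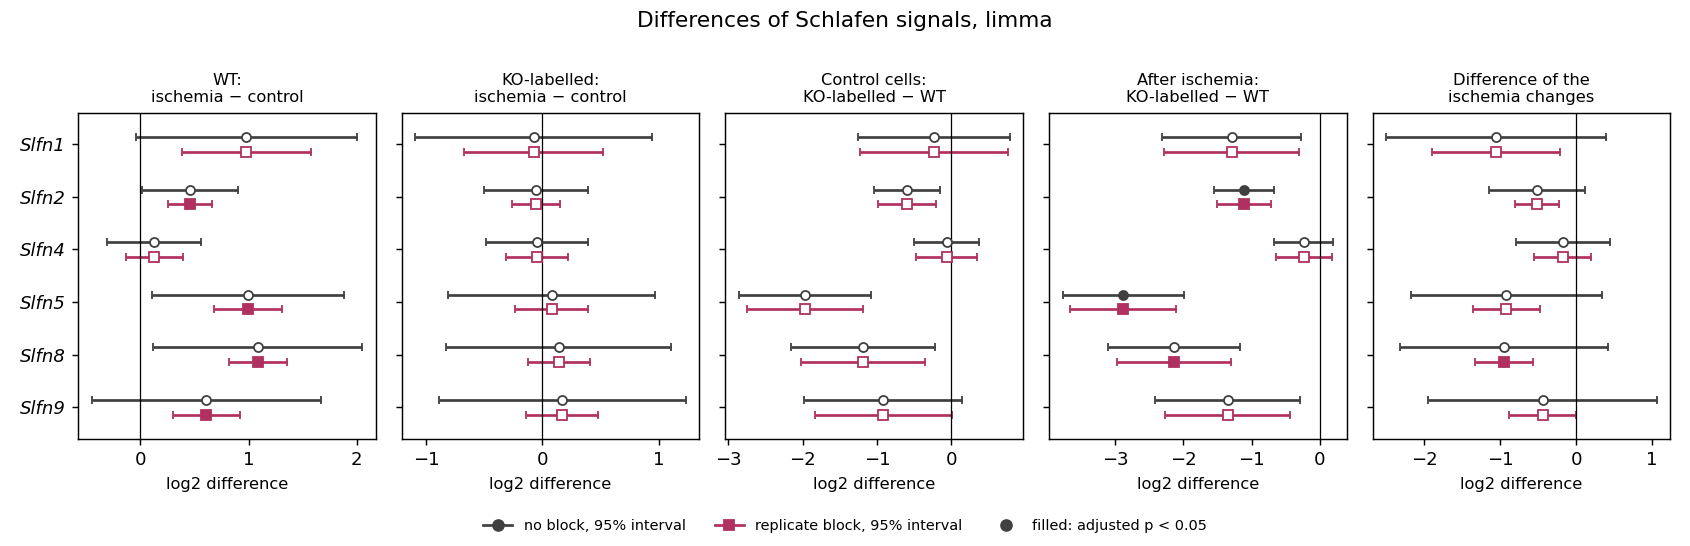
Log2 difference (horizontal axis) of each member (vertical axis) in 5 comparisons, with 95% intervals from limma; grey circles are fits without a block, red squares fits with a block on the replicate number (inside each genotype, or random for the genotype comparisons), and filled symbols have an adjusted p under 0.05. The blocked intervals of the 6 members are narrower, and Slfn5 shows the lowest values in both genotype comparisons, at -1.97 and -2.88.

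The order of group means was shared by the long members. For Slfn5 the means were 10.44 ± 0.72 (SD, n = 3) in wild-type ischemia, 9.44 ± 0.85 in wild-type control, 7.56 ± 0.18 in knockout-labelled ischemia and 7.47 ± 0.48 in knockout-labelled control. The first 2 groups overlapped, as did the last 2. Slfn8 followed with 9.02 ± 0.87, 7.93 ± 0.93, 6.88 ± 0.25 and 6.74 ± 0.33, and Slfn9 with 8.18 ± 1.08, 7.57 ± 0.86, 6.83 ± 0.08 and 6.66 ± 0.52. In Slfn2 the last 2 stood in the opposite order, at 10.99 ± 0.38, 10.53 ± 0.39, 9.88 ± 0.11 and 9.93 ± 0.17 for the same groups. The 6 wild-type arrays spanned 2.49 for Slfn5 and 2.75 for Slfn8, and the 6 knockout-labelled arrays 0.87 and 0.76.

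Interferon-stimulated genes outside the family were read on the same arrays, from a list of 28 of which 22 were tested. Their mean per array ran from 7.23 to 10.18 in the wild type and from 6.65 to 6.98 in the knockout-labelled cells. Slfn5 and Slfn8 put the wild-type arrays in exactly the order of that mean. For Slfn9 only the 2 lowest control arrays changed places, and for Slfn2 only ischemia arrays 1 and 3. In the wild-type ischemia comparison 22 of the 22 listed genes were higher, where 52.4% of all genes were, with a median of 1.09 beside 0.0117 for all genes; limma called 0 without the block and 20 with it. Zbp1, a sensor of nucleic acids that drives cell death, changed by 1.49 (with the block, limma adjusted p = 1.18e-05), and Gbp3, a guanylate-binding GTPase, by 1.23 (with the block, limma adjusted p = 0.000408). In knockout-labelled cells the list median was -0.09, and limma called 0 with and without the block. Between genotypes in control cells 21 of the 22 were lower in the knockout-labelled arrays, by a median of -0.98, and 0 were called with or without the random block. After ischemia all 22 were lower in the knockout-labelled arrays, by a median of -2.23 beside 0.0101 for all genes, and 12 were called (17 with the random block). The difference of ischemia changes had a list median of -1.19 beside 0.00799 for all genes, with 0 called without the block and 10 with it.

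**Figure D3:**
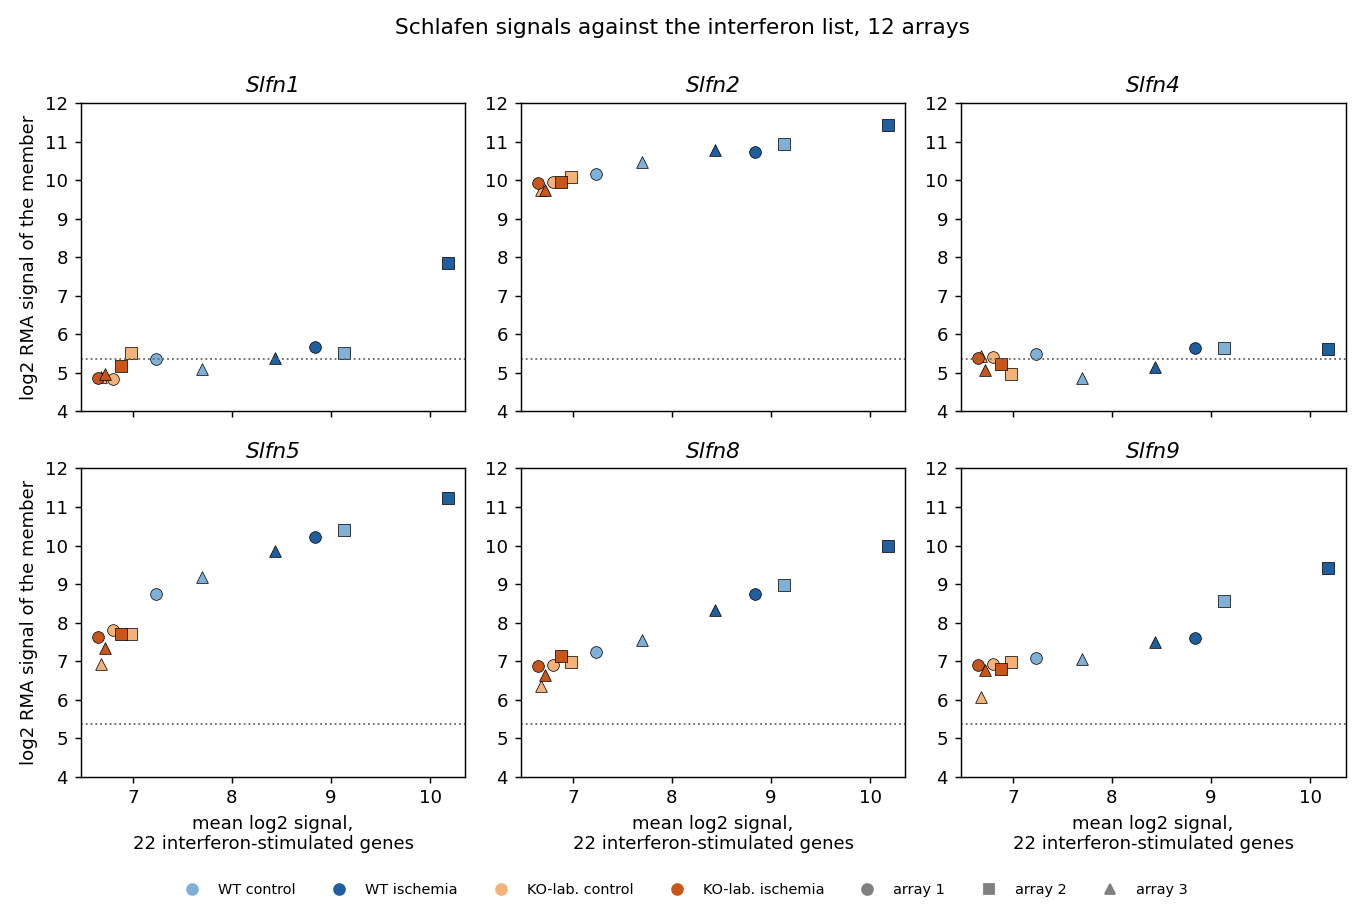
Log2 signal of each member (vertical axis) against the mean log2 signal of 22 interferon-stimulated genes outside the family (horizontal axis), 1 point per array; colour gives the group, shape the array number, and the dotted line the dim limit. Slfn5, Slfn8, Slfn9 and Slfn2 are higher where the list is higher over the wild-type arrays, from 7.23 to 10.18, Slfn1 departs only on wild-type ischemia array 2, and Slfn4 stays between 4.88 and 5.65.

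The interferon receptor and its signalling genes were read as a separate list. Of 12 listed, 11 were tested; in the wild-type ischemia comparison 9 were higher (median 0.30), with 0 called by limma without the block and 5 higher with it. Irf7, which amplifies interferon production, changed by 1.63, Usp18, a brake on the receptor, by 1.48, Stat2 by 0.89 and Irf1 by 0.61 (with the block, limma adjusted p = 8.07e-05, 6.12e-05, 0.000835 and 0.00504). The receptor genes Ifnar1 and Ifnar2 (0.06 and 0.30) and the kinase genes Jak1 and Tyk2 (0.02 and 0.16) were not called in either fit. Nor were Socs1 and Socs3 (-0.29 and -0.22). After ischemia limma called 5 lower in the knockout-labelled arrays, among them Irf7 (-3.94, SE 0.61, limma adjusted p = 0.0108) and Irf9 (-1.39, SE 0.21, limma adjusted p = 0.00828). Of 13 genes of the Tlr4 pathway, 11 were tested, and limma called 0 in each of the 5 comparisons with or without the block. The smallest p-value among them after ischemia belonged to Myd88, an adaptor of most Toll-like receptors, at -0.40 between genotypes (SE 0.090, limma adjusted p = 0.0719).

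For each tested member the 3 non-Schlafen genes of most similar pattern were found by Pearson correlation over the 12 arrays, which fall into the 2 genotypes and share replicate numbers, so the values are descriptions. Slfn5 lay closest to Parp14 (0.991), Oasl2 (0.986) and Trim30d (0.984), and Slfn8 to Trim30d (0.994), Ifit2 (0.994) and Gm12250 (0.991). Slfn2 ran with Oas3 (0.987), Cmpk2 (0.986) and Trim30d (0.986), and Slfn9 with Herc6 (0.979), Prr5l (0.974) and Ddx60 (0.967). Without the 2 arrays farthest from the member's median, both wild-type arrays numbered 2 in each case, the values for these 4 members were 0.892 to 0.991. Slfn1 was nearest to Cxcl9 (0.959), Gbp5 (0.957) and Parp10 (0.926), which came to 0.649, 0.878 and 0.558 without its 2 farthest arrays, so this likeness rests largely on wild-type ischemia array 2.

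The remaining Schlafen-named genes of the cluster with a probe set of their own were Slfn10-ps, Slfn3 and Slfn5os. Slfn10-ps is a pseudogene copy beside Slfn8, Slfn3 is of the intermediate forms, and Slfn5os is a noncoding RNA gene whose span overlaps Slfn5. Slfn10-ps read 7.93, 9.03 and 8.02 in wild-type control arrays 1, 2 and 3 and 8.79, 9.97 and 8.52 in the ischemia arrays. Its change was 0.77 (SE 0.36, limma adjusted p = 0.342; with the block limma adjusted p = 0.00442), with 0.28 in the knockout-labelled cells. Slfn3 changed by 0.43 in the wild type (with the block, limma adjusted p = 0.0859) and by 0.22 in the knockout-labelled cells. Slfn5os, with a dim mean of 5.41, changed by 0.18 in the wild type (with the block, limma adjusted p = 0.401). It changed by -0.12 in the knockout-labelled cells. Between genotypes Slfn5os differed by 0.02 in control cells and -0.27 after ischemia, and its groups overlapped in each of these comparisons. Slfn3 differed by -0.72 in control cells, without overlap, and by -0.92 after ischemia, with overlap. Slfn10-ps differed by -0.58 in control cells, with overlap, and by -1.07 after ischemia, without overlap. Limma called neither gene between genotypes, with or without the random block. The copies of the cluster resemble each other, and probe sequences were not used here, so how far a probe set reads its near-identical neighbours was not tested.

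Genes around the cluster were compared from a list of 14 non-Schlafen neighbours, of which 13 were tested. In the wild-type ischemia comparison their median change was -0.02, and limma called 0 without the block and 1 with it. That gene was Ccl5, a chemokine for T cells and monocytes at the far end of the list, with a change of 1.57 (SE 0.45; with the block, limma adjusted p = 2.88e-05). Between genotypes after ischemia limma again called only Ccl5, at -4.51 (SE 0.45, limma adjusted p = 0.000615). The other 12 neighbours lay between Rad51d, a DNA repair gene, at -0.14 and Mmp28, a matrix protease, at 0.24 in that comparison.

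**Figure D4:**
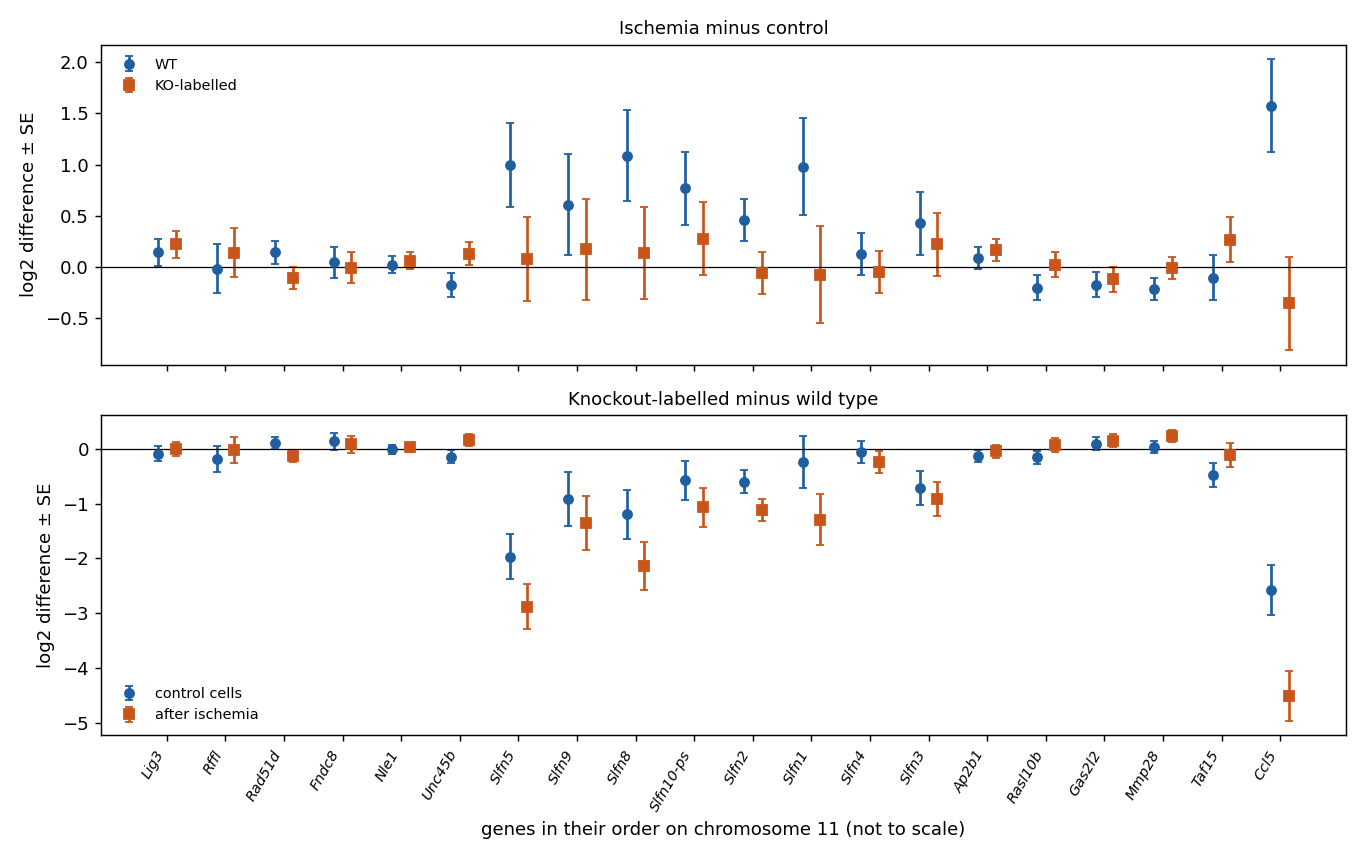
Log2 difference with its SE from limma without a block (vertical axes) for genes in their order along chromosome 11 (horizontal axis, not to scale); the upper panel shows ischemia minus control in each genotype, the lower panel knockout-labelled minus wild type in control cells and after ischemia. After ischemia the genotype difference reaches -4.51 at Ccl5 and -2.88 at Slfn5, the other flanking genes lie between -0.14 and 0.24, and Slfn4 at -0.24 is no larger in size than these.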

How the data were processed

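The authors deposited log2 signals per probe set, which the submitters' processing notes credit to RMA in Affymetrix Expression Console 1.1. RMA corrects background, normalizes arrays by quantiles and summarises probes, so differences of total RNA cannot be seen. Of 35557 probe sets, 21789 had 1 symbol in the platform annotation (21698 updated through GRCm38.p6 identifiers), 1621 had several and were not named. The brightest probe set stood for a gene, and means at or below the 30th percentile (5.36 log2) were left out.

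Limma 3.58.1 in R 4.3.3 (lmFit, eBayes) fitted 1 mean per group over 12 arrays, with Benjamini-Hochberg adjustment over 15273 genes and a threshold of 0.05. Blocks were the replicate number within genotype, fixed for ischemia comparisons and random (duplicateCorrelation, 0.338) between genotypes. Same-numbered arrays of a genotype deviated together (0.478 to 0.735 in the wild type, 0.316 to 0.490 in the knockout-labelled arrays, minimum 0.1); between genotypes they did not all pass (-0.332 to 0.326). Tlr4 was tested by exact permutation in scipy 1.17.1. The fits were tested on simulated data. The members, gene lists and tests were chosen with earlier results of these data known. All 6 members were named, with up to 4 genes per comparison list by smallest p, and the uncalled genes of the signalling list in the wild-type ischemia comparison. Promoters are from RefSeq; all 6 members matched.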

Additional observations from a re-analysis of the deposited data

Results flagged for a closer look

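The difference between the ischemia change in knockout-labelled cells and that in wild-type cells was -0.95 for Slfn8 in the fit that blocks on the array number inside each genotype, and its own test passed there (block SE 0.18, limma adjusted p = 0.0372). The 3 wild-type pairs rose by 1.48, 1.01 and 0.76, while the knockout-labelled pairs changed by -0.01, 0.16 and 0.27. Without the block the same difference had an SE of 0.63 and did not pass. Groups of 3 arrays are too small for a check of single outlying arrays, so the high Slfn1 signal on wild-type ischemia array 2 (7.84) carries no such check.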

How the results depend on the processing

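Limits come from the number of arrays, 3 per group, from the dim signals of Slfn1 and Slfn4, and from the genotype labels, which Tlr4 does not check. Of 614 member values under the alternatives of normalization, filter, fit, block and single arrays left out, 581 kept their direction and their side of the threshold, 12 passed newly, 5 no longer passed and 16 changed sign. Many of these values could not change sign, so the 581 do not measure stability. A block, a filter or an array left out of a group outside the comparison keeps the log2 difference and can move only its p-value. Quantile normalization and median centring kept the sign of every member value. The mean of probe sets, an intensity trend, no dim filter and a fit of only the compared groups cannot change it. Each member has 1 probe set, and those fits keep the difference of group means. Slfn1 was not tested with the dim filter at the 50th percentile. The Tlr4 difference was 0.0198 after quantile normalization.

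The replicate block, whose pairing rests on the data, moved the members called in the wild-type ischemia comparison from 0 to 4 (4 with wild-type arrays only; 2, 2 and 3 without wild-type pairs 1, 2 and 3; 4 without each knockout-labelled pair). Of all 15273 genes the same fits called 468, then 143, 488 and 248, then 714, 368 and 767. It moved the difference of ischemia changes from 0 to 1 (1 without wild-type pair 3, 0 without each other pair). A block of 3 levels over all arrays gave 1 member in the control genotype comparison, as did leaving out both wild-type arrays numbered 2, chosen after seeing the data, which also put Slfn4 there at 0.093. Without those 2 arrays limma called 100 of all genes in that comparison, where the main fit called 9. After ischemia it called 295 between genotypes, where the main fit called 109. The block raised all genes called from 2 to 570 in the wild type, from 0 to 99 in the knockout-labelled arrays and from 0 to 47 for the difference; for the genotype comparisons the random block gave 14 in control cells in place of 9, and the 3-level block 31 in control cells and 236 in place of 109 after ischemia. In the wild type, quantile normalization and only the compared groups each called 1 gene, and in the control genotype comparison the latter called 0.

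With each array left out in turn, the members called after ischemia between genotypes ranged from 0 to 3 and stayed 0 in the other comparisons. All genes called ranged from 1 to 79 in the wild type, 0 to 23 between genotypes in control cells, 25 to 158 after ischemia and 0 to 1 for the difference. Log2 changes that turned sign in these fits ranged from -0.013 to 1.11 (Slfn9) and -0.10 to 0.28 (Slfn4) in the wild type. In knockout-labelled cells they ranged from -0.20 to 0.14 (Slfn1), -0.15 to 0.021 (Slfn2), -0.19 to 0.24 (Slfn5), -0.051 to 0.26 (Slfn8), -0.13 to 0.33 (Slfn9) and -0.20 to 0.033 (Slfn4). Between genotypes in control cells Slfn4 ranged from -0.29 to 0.093. For the difference of ischemia changes Slfn9 ranged from -0.93 to 0.19 and Slfn4 from -0.33 to 0.057. The Tlr4 difference ranged from -0.075 to 0.041. Of the 15 choices of most alike genes, in which Trim30d stands 3 times, 2 were also made by Spearman correlation and 3 by deviations from group means.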

Other observations

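Antiviral and RNA-cutting nucleases and related genes, not all of them antiviral and not all enzymes, were read from a list of 12 of which 10 were tested. The list was chosen as near the role of some Schlafen proteins. In the wild-type ischemia comparison all 10 were higher, where 52.4% of all genes were, with a median of 0.21. Limma called 0 without the block. With the block, where 2.99% of all genes were called higher, it called 4 of the 10. These were Trex1, which degrades cytosolic DNA (0.93, with the block limma adjusted p = 0.000899), Isg20, an RNA exonuclease (0.95, adjusted p = 0.00615), Adar, which edits double-stranded RNA (0.50, adjusted p = 0.0137), and Samhd1, which breaks down the precursors of DNA (0.47, adjusted p = 0.0161). In knockout-labelled cells 4 of the 10 were higher, the median was -0.03, and limma called 0 with and without the block. After ischemia limma called 1 gene lower in the knockout-labelled arrays, Adar (-0.98, SE 0.17, adjusted p = 0.0178), and 2 with the random block, adding Trex1 (-1.23, adjusted p = 0.0223).

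Genes of proliferation and quiescence, the process the family was named for, were read from a list of 20 of which 18 were tested. In the wild-type ischemia comparison 12 were lower, with a median of -0.12; limma called 0 without the block and 3 lower with it. Mki67, a marker of dividing cells, changed by -1.25 (with the block, limma adjusted p = 0.000627), and Ccna2, a cyclin of DNA replication, by -1.14 (adjusted p = 0.0130). In each genotype comparison limma called 0 of the 18 with and without the block.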
